A study of Homo sapiens with 32 samples.

Results

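The genes described here build or remodel the extracellular matrix, and 34 of the 14884 genes measured in K-562 cells belonged to them. K-562 is a human chronic myeloid leukemia line of erythroid and megakaryocytic character that grows in suspension. Members were array features whose symbol names a numbered collagen, a laminin chain, a matrix metalloproteinase (MMP), an ADAMTS or ADAMTS-like protein, a tissue inhibitor of metalloproteinases (TIMP), or VCAN, SPARC, LUM, DCN, HSPG2 or AGRN. The rule used no measured level except to take the brightest of several features of a gene. It left out 6 pseudogenes and antisense genes. Of the 113 genes in RefSeq that the rule covers, those measured were 19 of 23 MMPs, 4 of 4 TIMPs, 5 of 5 ADAMTS-like genes, 5 of 6 proteoglycans and glycoproteins, and 1 of 44 collagens (COL26A1). None of the 12 laminin chains and none of the 19 ADAMTS proteases was among the 34, so collagens, laminins and ADAMTS proteases as classes are not analysed here. The members are therefore treated as matrix proteases, their inhibitors, ADAMTS-like proteins and proteoglycans.

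The 32 arrays came from 4 groups of 8, all K-562: treatment-naive cells, cells resistant to 0.5 µM imatinib (low imatinib), cells resistant to 2 µM imatinib (high imatinib) and cells resistant to 0.1 µM nilotinib. Both drugs inhibit the BCR-ABL1 kinase on which K-562 cells depend, and resistance was reached by stepwise increases in concentration. Each resistance had 2 biological replicates, called lines 1 and 2 here, with 4 technical arrays each. The naive arrays formed sets S and K of 4 arrays, and the labels do not say what these letters mean. The growth text describes medium without either drug for every sample, and it does not say if the lines were harvested with drug.

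MMPs are zinc-dependent endopeptidases that are made as inactive precursors and cut collagens, proteoglycans and other matrix and cell surface proteins. Some are secreted and others, such as MMP14, MMP15, MMP16 and MMP24, are held in the membrane. TIMPs bind the active site of MMPs and block it. ADAMTS-like proteins resemble the ADAMTS proteases but lack the protease domain, and several of them bind fibrillin microfibrils. Versican (VCAN), perlecan (HSPG2) and agrin (AGRN) are large proteoglycans, while decorin (DCN) and lumican (LUM) are small ones that bind collagen fibrils.

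Sequence upstream of the transcription start was taken from RefSeq (GRCh38.p14) for the 22 of 34 members that had an entry. A window of 250 bases before the start is shown for VCAN, TIMP4, TIMP1 and HSPG2, the members whose levels differed most between the high-imatinib lines, and for MMP10, a secreted stromelysin whose window holds an AP-1 site. Capitals mark the AP-1 site (TGANTCA, which reads the same on both strands) and the GC box (GGGCGG on either strand). The windows are chr5:83471494-83471743 on the plus strand for VCAN, chr3:12158913-12159162 on the minus strand for TIMP4, chrX:47582186-47582435 on the plus strand for TIMP1, chr1:21937311-21937560 on the minus strand for HSPG2 and chr11:102780629-102780878 on the minus strand for MMP10, each written 5′ to 3′ along its gene.
VCAN: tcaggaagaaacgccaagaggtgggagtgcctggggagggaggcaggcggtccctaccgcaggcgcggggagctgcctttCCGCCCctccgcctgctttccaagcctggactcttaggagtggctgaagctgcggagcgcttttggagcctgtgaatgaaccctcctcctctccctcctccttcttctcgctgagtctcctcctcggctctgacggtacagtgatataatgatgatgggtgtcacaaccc
TIMP4: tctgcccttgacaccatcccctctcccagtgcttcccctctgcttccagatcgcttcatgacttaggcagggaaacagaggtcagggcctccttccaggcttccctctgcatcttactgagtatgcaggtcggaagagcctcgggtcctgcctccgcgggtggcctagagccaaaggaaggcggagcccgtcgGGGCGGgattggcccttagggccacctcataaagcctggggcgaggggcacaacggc
TIMP1: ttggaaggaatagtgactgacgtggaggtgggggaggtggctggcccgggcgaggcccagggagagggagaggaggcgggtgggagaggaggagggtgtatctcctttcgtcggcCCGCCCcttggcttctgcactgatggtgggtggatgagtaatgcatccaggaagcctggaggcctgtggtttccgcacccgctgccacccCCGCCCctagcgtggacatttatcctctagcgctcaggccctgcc
HSPG2: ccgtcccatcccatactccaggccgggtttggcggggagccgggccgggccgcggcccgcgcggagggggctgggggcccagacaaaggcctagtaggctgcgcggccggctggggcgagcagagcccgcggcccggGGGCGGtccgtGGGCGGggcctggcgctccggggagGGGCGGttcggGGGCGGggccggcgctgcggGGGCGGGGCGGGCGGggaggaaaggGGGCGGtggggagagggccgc
MMP10: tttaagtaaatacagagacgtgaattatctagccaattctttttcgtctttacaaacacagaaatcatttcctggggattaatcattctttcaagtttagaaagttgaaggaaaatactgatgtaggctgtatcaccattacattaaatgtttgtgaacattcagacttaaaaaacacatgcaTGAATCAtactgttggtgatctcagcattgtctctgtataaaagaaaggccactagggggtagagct

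AP-1 is known as a regulator of several MMP genes. Its motif was present in 2 of the 22 windows (9.09%), those of MMP10 (67 bases before the start) and MMP20, against 6.6% of all 27305 RefSeq windows of the same length. The GC box was present in 14 of 22 (63.6%) against 42.3% of all windows. The word TATAAA, searched on both strands, was in 6 of 22 (27.3%) against 11.1%. VCAN and TIMP4 each carried 1 GC box, TIMP1 carried 2 and HSPG2 carried 8, some of them overlapping. A match describes these letters and is not a measured binding site. Among members with a window, the median GC content was 48.2% for the 10 in the dimmest 40% of genes and 74.2% for the other 12.

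Values are log2 array intensities as the submitters deposited them, with the base inferred from their range. Within a set, pairs of arrays had a correlation across genes of 0.952 to 0.991, and array medians lay between 5.85 and 6.11. Levels of different genes depend on their probes, so their place among all genes by mean level is only a rough guide to brightness. No detection calls were used. By mean level, 20 of the 34 members lay in the dimmest 40% of genes (below 6.16), including 14 of 19 MMPs, and at such levels true absence and low expression cannot be separated. The 6 measured of 12 erythroid and megakaryocytic markers (GATA1, TAL1, KLF1, EPOR, LMO2 and GFI1B) were all above that level, with list means of 7.41 and 7.68 in the naive sets and 7.79 to 8.37 in the lines. The 5 measured of 10 fibroblast markers had list means of 6.24 and 6.29 in the naive sets and 5.80 to 5.98 in the lines. TWIST1, TCF21 and DPT of that list lay in the dimmest 40%, and THY1 and PRRX1 did not. The 5 measured of 7 endothelial markers had list means of 6.29 and 6.38 in naive cells and 6.02 to 6.23 in the lines. Those of 5 of 6 epithelial markers were 7.82 and 8.02 in naive cells and 7.04 to 8.05 in the lines. Those of 3 of 4 chondrocyte markers were 6.36 and 6.49 in naive cells and 5.99 to 6.31 in the lines. Those of 5 of 7 granulocyte and monocyte markers were 6.60 and 6.92 in naive cells and 6.04 to 7.07 in the lines, with CD14, CSF1R and MPO in the dimmest 40%. Within that list CD68, a lysosomal protein of macrophages, read 8.32 and 8.49 in naive cells and 6.94 and 6.88 in low imatinib. It read 10.34 and 7.71 in high imatinib and 9.31 and 8.72 in nilotinib. In high-imatinib line 1, where CD68 was highest, LYZ read 7.45, CD14 5.70, CSF1R 6.18 and MPO 5.71, none of them above both naive sets. LYZ (lysozyme) had its highest set in nilotinib line 2, at 8.35. The part of other cell types in the results was not tested.

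The members differed most in VCAN, TIMP1, TIMP4, ADAMTSL4, HSPG2 and MMP19, the 6 with a range over 1 log2 unit across the 8 sets. That is 17.6% of members, against 23.5% of all genes. The median range was 0.53 for members and 0.66 for all genes. The highest of the 8 sets was a naive one for 18 of 34 members (52.9%, against 36.9% of all genes), and the lowest was nilotinib line 1 for 13 of 34 (38.2%, against 23.5%). In RNA from a whole culture, fewer cells that express a gene and less RNA per cell cannot be told apart.

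**Figure D1:**
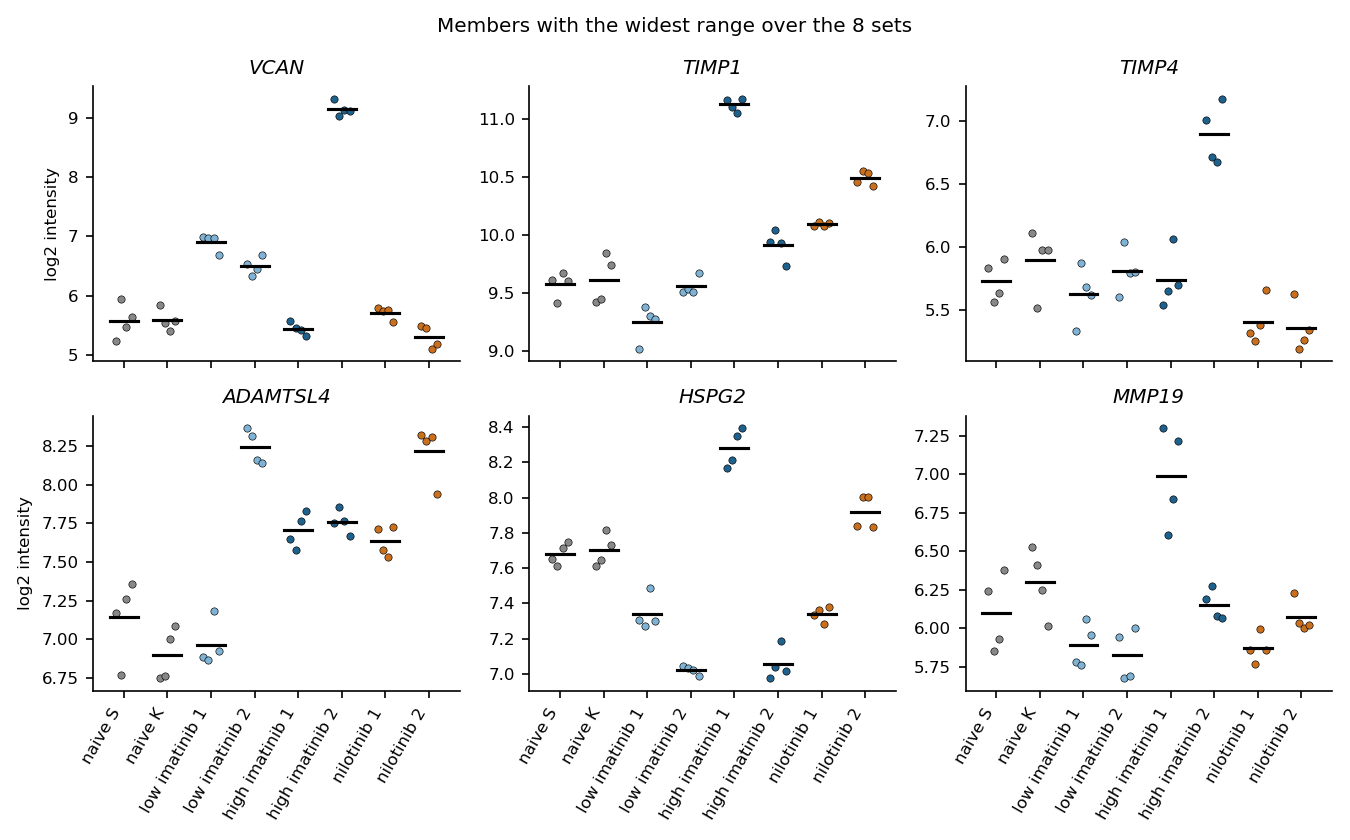
Log2 intensity of the members with the widest range, 1 point for each of the 4 arrays of a set and a bar at the set mean. VCAN stands at 9.14 in high-imatinib line 2, and the remaining sets span 5.31 to 6.91, and TIMP1 is highest at 11.13 in high-imatinib line 1.

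Versican was the member with the widest range, 3.83. VCAN (chromosome 5, 83471744 to 83582302) read 5.57 ± 0.30 in naive S and 5.59 ± 0.19 in naive K (mean ± SD of n = 4 technical arrays, as for all set values below). It read 6.91 ± 0.14 and 6.50 ± 0.15 in lines 1 and 2 of low imatinib, 5.44 ± 0.10 and 9.14 ± 0.13 in high-imatinib lines 1 and 2, and 5.72 ± 0.11 and 5.31 ± 0.19 in nilotinib lines 1 and 2. Both low-imatinib lines and high-imatinib line 2 lay above the naive sets, nilotinib line 1 lay slightly above them, and high-imatinib line 1 and nilotinib line 2 lay below them. High-imatinib line 2 exceeded line 1 by 3.71 ± 0.12 (SE; limma on 32 arrays, adjusted p = 2.65e-22), a 13.0-fold difference against the technical spread. A second, dimmer feature of VCAN also had its highest level there, 4.03 against 3.02 to 3.52 in the other 7 sets. In low imatinib that feature read 3.15 and 3.45, between the naive sets (3.52 in S and 3.02 in K), so it did not show the low-imatinib rise. In the fit of set means the 4 groups share 1 estimate of the spread, which takes in the disagreement of the high-imatinib lines. VCAN passed no test in that fit. Its difference from naive cells was 1.13 ± 1.01 in low imatinib (adjusted p = 0.528) and 1.71 ± 1.01 in high imatinib (adjusted p = 0.446). With limma on only the naive and low-imatinib sets, the low-imatinib difference passed (adjusted p = 0.00734), as did 13.4% of all genes. When 1 high-imatinib line was left out, that arm held 1 set, which is assumed to vary like the sets of the other groups. The disagreement between the lines then no longer counts, so only sizes of differences are given. Without high-imatinib line 1 the VCAN difference was 1.13 in low imatinib, 3.57 in high imatinib and 1.54 over all lines. It was -3.63 between nilotinib and high imatinib.

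TIMP4, an inhibitor with a narrow tissue range, shared its highest set with VCAN. TIMP4 (chromosome 3, 12153068 to 12158912) read 5.73 ± 0.16 and 5.89 ± 0.26 in naive sets S and K, 5.62 ± 0.22 and 5.81 ± 0.18 in low imatinib, 5.74 ± 0.23 and 6.89 ± 0.24 in high imatinib, and 5.40 ± 0.18 and 5.35 ± 0.19 in nilotinib. High-imatinib line 2 stood about 1 unit above every other set, and both nilotinib lines lay below all other sets. The difference between the high-imatinib lines was 1.16 ± 0.14 (adjusted p = 4.48e-08). Between nilotinib and high imatinib it was -0.94 ± 0.34 over set means (unadjusted p = 0.0270, adjusted p = 0.744). It was -1.52 without high-imatinib line 1, where the arm is line 2 alone.

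TIMP1, a secreted inhibitor of most MMPs, was highest in high-imatinib line 1. TIMP1 (chromosome X, 47582436 to 47586789) read 9.58 ± 0.11 and 9.62 ± 0.21 in naive sets S and K, 9.25 ± 0.16 and 9.56 ± 0.08 in low imatinib, 11.13 ± 0.06 and 9.91 ± 0.13 in high imatinib, and 10.09 ± 0.01 and 10.49 ± 0.06 in nilotinib. All 4 high-imatinib and nilotinib sets lay above naive cells, and both low-imatinib sets lay below. The difference was 0.92 ± 0.37 in high imatinib (adjusted p = 0.308), 0.70 ± 0.37 in nilotinib (adjusted p = 0.227) and -0.19 ± 0.37 in low imatinib. High imatinib exceeded low imatinib by 1.12 (95% interval 0.24 to 1.99, adjusted p = 0.934), and nilotinib exceeded low imatinib by 0.89 ± 0.37 (adjusted p = 0.721). Without high-imatinib line 2, the TIMP1 difference of high imatinib was 1.53 from naive and 1.73 from low imatinib, with line 1 as the whole arm.

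The other inhibitors covered less. TIMP3, which binds to the matrix itself, read 6.47 and 6.22 in the naive sets, 6.22 and 5.89 in low imatinib, 6.72 and 6.24 in high imatinib and 6.32 and 6.52 in nilotinib. The highest level of this TIMP3 feature was thus in high-imatinib line 1, as for TIMP1. A second, dimmer feature of TIMP3 was highest in naive K, at 5.35, against 5.30 in naive S and 5.30 in high-imatinib line 1. TIMP2, which also takes part in activating the precursor of a gelatinase, ranged from 5.14 in nilotinib line 2 to 5.77 in high-imatinib line 2.

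Perlecan differed between the lines of every resistance. HSPG2 (chromosome 1, 21822244 to 21937310) read 7.68 ± 0.06 and 7.70 ± 0.09 in naive sets S and K, 7.34 ± 0.10 and 7.02 ± 0.02 in low imatinib, 8.28 ± 0.11 and 7.05 ± 0.09 in high imatinib, and 7.34 ± 0.04 and 7.92 ± 0.10 in nilotinib. High-imatinib line 1 and nilotinib line 2 were above naive cells, and the other 4 lines were below. Line 2 minus line 1 was -0.32 ± 0.08 in low imatinib (adjusted p = 0.00391), -1.23 ± 0.08 in high imatinib (adjusted p = 1.81e-14) and 0.58 ± 0.08 in nilotinib (adjusted p = 5.54e-07). Agrin, an organizer of the neuromuscular junction, varied less. AGRN (chromosome 1, 1020120 to 1056116) read 6.81 ± 0.06 and 7.08 ± 0.08 in naive sets S and K, 7.39 ± 0.19 and 7.07 ± 0.10 in low imatinib, 7.71 ± 0.14 and 7.56 ± 0.19 in high imatinib, and 7.72 ± 0.06 and 7.21 ± 0.11 in nilotinib. Only low-imatinib line 2 fell within the naive range. Over all 6 lines AGRN differed by 0.50 ± 0.18 (unadjusted p = 0.0254, adjusted p = 0.123).

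ADAMTSL4, a fibrillin-binding protein of the lens zonule, was higher than naive in 5 of 6 lines. ADAMTSL4 (chromosome 1, 150549408 to 150560937) read 7.14 ± 0.26 and 6.90 ± 0.17 in naive sets S and K, 6.96 ± 0.15 and 8.25 ± 0.11 in low imatinib, 7.71 ± 0.12 and 7.76 ± 0.08 in high imatinib, and 7.64 ± 0.10 and 8.21 ± 0.18 in nilotinib. Low-imatinib line 1 alone overlapped the naive range. The difference over all lines was 0.73 ± 0.33 (adjusted p = 0.182), and low-imatinib line 2 exceeded line 1 by 1.28 ± 0.11 (adjusted p = 2.5e-10). ADAMTSL5 (chromosome 19, 1505022 to 1513019) was the only member whose 6 lines all lay above both naive sets. It read 6.82 ± 0.13 and 6.80 ± 0.09 in naive sets S and K, 6.86 ± 0.11 and 7.49 ± 0.09 in low imatinib, 7.40 ± 0.06 and 7.12 ± 0.11 in high imatinib, and 7.53 ± 0.15 and 7.11 ± 0.37 in nilotinib. Low-imatinib line 1 exceeded naive S by less than its SD, and the difference over all lines was 0.44 ± 0.20 (adjusted p = 0.189). With the technical axis taken out it was 0.29 and the lines no longer all lay above. The other 3 ADAMTS-like genes had ranges of 0.31 to 0.49.

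Among the MMPs, MMP24 had the largest difference between resistant and naive cells. MMP24 (chromosome 20, 35226690 to 35276998), a membrane-type protease known from the nervous system, read 7.77 ± 0.16 and 8.03 ± 0.36 in naive sets S and K, 7.38 ± 0.12 and 7.46 ± 0.20 in low imatinib, 7.43 ± 0.18 and 7.47 ± 0.15 in high imatinib, and 7.15 ± 0.24 and 7.35 ± 0.31 in nilotinib. All 6 lines lay below both naive sets. The difference over all lines was -0.53 (95% interval -0.81 to -0.25), with an unadjusted p of 0.00301 and an adjusted p of 0.0547, so it did not pass. After quantile normalization it was -0.73 and passed (adjusted p = 0.0450), and with the main axis of technical variation taken out it was -0.05. A second, dimmer feature of MMP24 did not separate the groups: it read 5.59 and 5.43 in the naive sets and 5.10 to 5.62 in the lines.

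MMP15, another membrane-type protease, differed between lines in how far it lay below naive cells. MMP19, a secreted protease, stood apart in high-imatinib line 1. MMP15 (chromosome 16, 58025754 to 58046901) read 7.48 ± 0.33 and 7.45 ± 0.08 in naive sets S and K, 6.90 ± 0.04 and 7.44 ± 0.10 in low imatinib, 6.56 ± 0.15 and 7.20 ± 0.19 in high imatinib, and 7.40 ± 0.05 and 7.01 ± 0.16 in nilotinib. All 6 lines were below naive cells, 2 of them by less than 0.1. MMP19 (chromosome 12, 55835433 to 55842936) read 6.10 ± 0.25 and 6.30 ± 0.22 in naive sets S and K, 5.89 ± 0.14 and 5.83 ± 0.17 in low imatinib, 6.99 ± 0.32 and 6.15 ± 0.10 in high imatinib, and 5.87 ± 0.09 and 6.07 ± 0.11 in nilotinib. High-imatinib line 1 stood above all other sets and exceeded line 2 by 1.78-fold (line 2 minus line 1, -0.84 ± 0.13, adjusted p = 4.67e-06). High minus low imatinib was 0.71 ± 0.26 (adjusted p = 0.934), and 1.13 without high-imatinib line 2, with line 1 as the whole arm. MMP25, a membrane-anchored protease of leukocytes, ranged from 7.06 in naive S to 7.60 in high-imatinib line 2. A dimmer feature of MMP25 was highest in naive K (7.05), and another in low-imatinib line 1 (5.71).

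**Figure D2:**
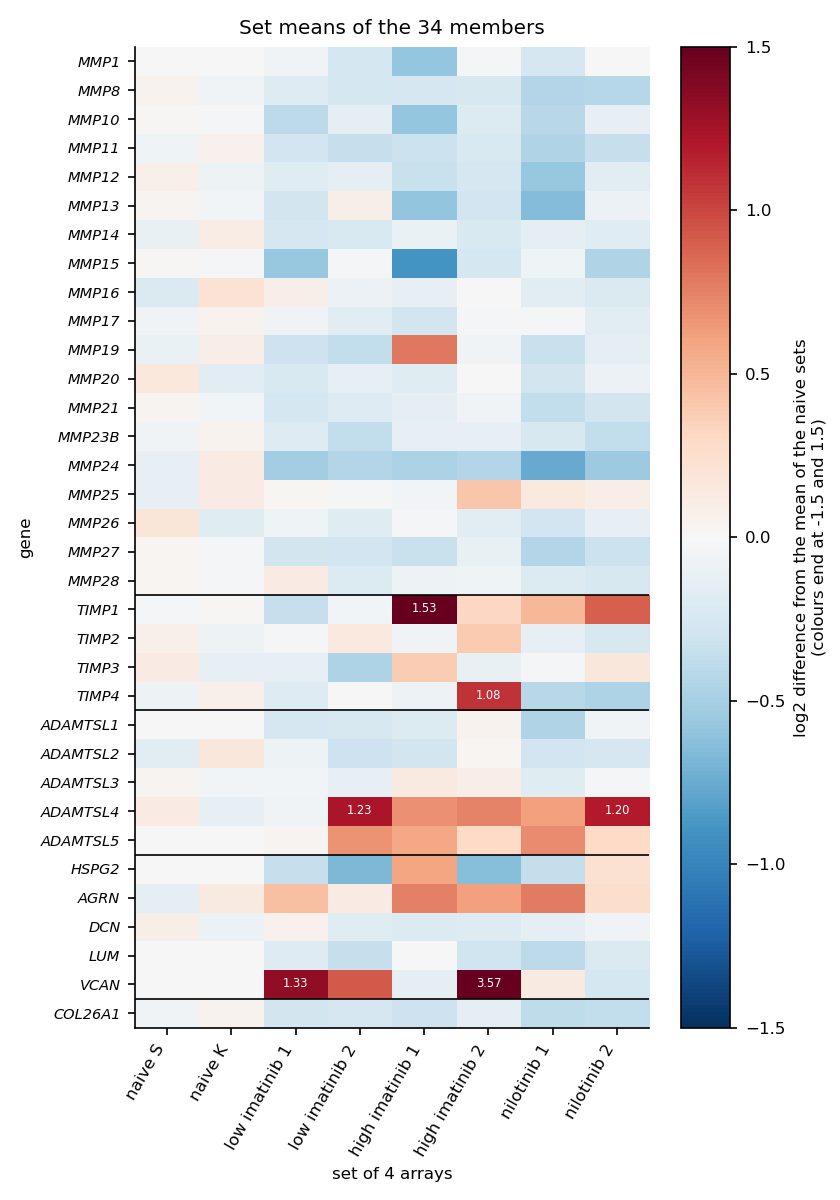
Set mean of each of the 34 members minus the mean of the 2 naive sets, in log2 units, with the 8 sets as columns. The strongest cell is VCAN in high-imatinib line 2 (3.57), and most MMP rows are slightly below 0 in the lines.

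Against naive cells, no member passed at an adjusted p of 0.05 for the 6 resistant lines as 1 group (0 of 34, with 3.72% of all 14884 genes passing). At an unadjusted p under 0.05 there were 6 members (17.6%), namely AGRN, COL26A1, MMP8, MMP11, MMP24 and MMP27, against 29.8% of all genes. Lines and naive sets did not overlap for 1 member that was higher (ADAMTSL5), against 17% of genes, and for 10 that were lower, or 29.4% against 15.9% of genes. Those 10 were COL26A1 and the proteases MMP8, MMP10, MMP11, MMP12, MMP15, MMP21, MMP23B, MMP24 and MMP27. COL26A1 (chromosome 7, 101362388 to 101559024), the measured collagen, read 6.89 and 6.99 in the naive sets and 6.56 to 6.80 in the lines. MMP11, a stromelysin that acts on few matrix proteins, read 6.63 and 6.76 in the naive sets and 6.25 to 6.46 in the lines (-0.33 ± 0.10, adjusted p = 0.0978). MMP8, the collagenase of neutrophils, read 5.52 and 5.42 in the naive sets and 5.03 to 5.27 in the lines (-0.31 ± 0.10, adjusted p = 0.100). MMP10, the stromelysin shown above, read 4.56 and 4.52 in the naive sets and 3.96 to 4.41 in the lines (-0.31 ± 0.15, adjusted p = 0.205). MMP27, at 5.32 and 5.26 in the naive sets, read 4.85 to 5.18 in the lines (-0.30 ± 0.11, adjusted p = 0.133). With the arrays fitted singly and the set as a random block, 6 members passed over all lines (ADAMTSL4, ADAMTSL5, AGRN, MMP11, MMP24 and TIMP1), as did 24.6% of all genes.

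By family, 18 of 19 MMPs, 2 of 4 TIMPs, 3 of 5 ADAMTS-like genes and 3 of 5 proteoglycans had a mean below naive, with median differences of -0.22, 0.0027, -0.02 and -0.12. Over all members the median was -0.17 (27 of 34 below 0), and over all genes it was -0.03 (52.4% below 0). Brightness moved with this difference: the 20 members in the dimmest 40% of genes had a median of -0.17 and the 5954 genes of that range -0.16, while the other 14 members had -0.11 and the other genes 0.20. The groups also differed along the principal axis on which technical arrays of 1 set vary, with scores of -20.8 and -25.1 in the naive sets and -2.13 to 21.2 in the lines. With that axis taken out the member median was -0.005 with 17 members on each side, and 10 of 34 members turned sign, among them COL26A1 (0.013) and MMP21 (0.09). MMP8 came to -0.02, and MMP15 (-0.41), MMP11 (-0.23) and MMP27 (-0.27) stayed below 0. MMP8, MMP21, MMP24 and COL26A1 then overlapped the naive sets, and 0 members were higher and 9 lower without overlap (8.73% and 9.51% of genes). After quantile normalization the median was -0.04 with 21 of 34 below 0. The MMPs kept a median below 0 under both, -0.15 (13 of 19 below) with the axis taken out and -0.09 (15 of 19 below) after quantile normalization. The median of the ADAMTS-like genes was above 0 under both (0.12 and 0.10), and that of the proteoglycans was 0.09 and -0.02. The part of this axis in the differences was not tested.

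**Figure D3:**
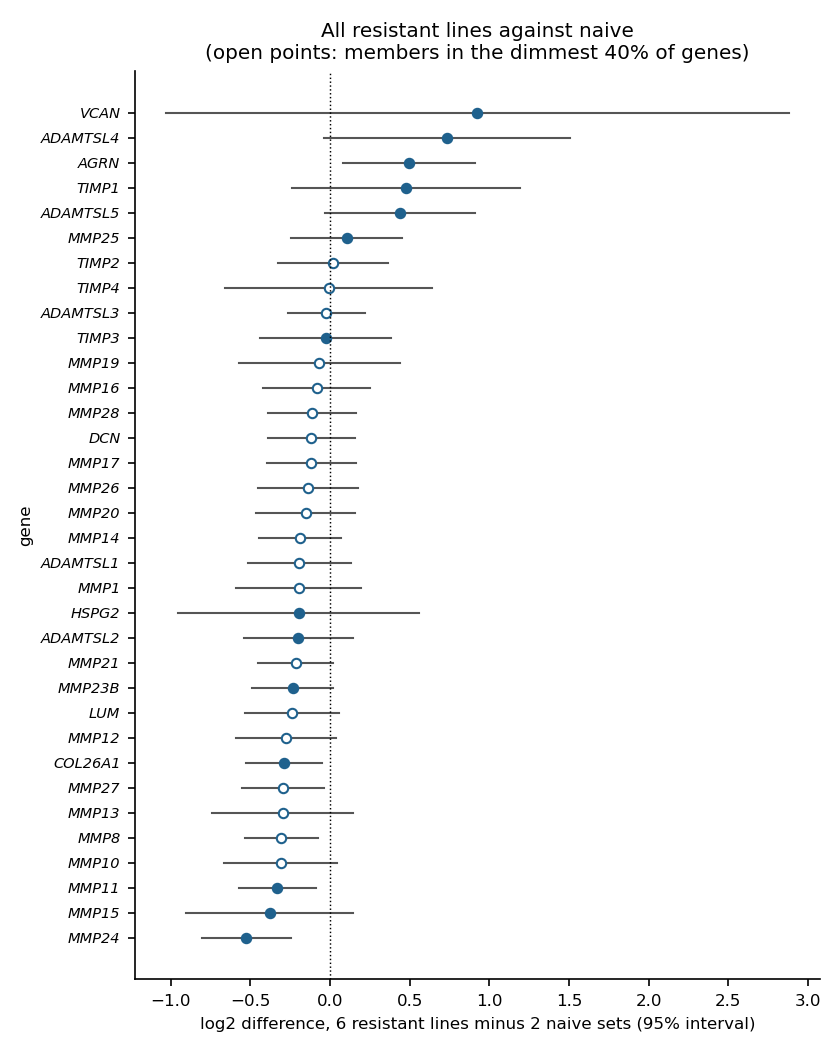
Difference of the 6 resistant lines from the 2 naive sets for each member, in log2 units, with 95% intervals from limma; open points are members in the dimmest 40% of genes. MMP24 is lowest at -0.53, VCAN is highest at 0.92 with an interval from -1.03 to 2.88, and no member passed after adjustment.

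The 3 resistances were also compared with naive cells one by one. These comparisons share the naive sets, so they are given side by side. In low imatinib 0 of 34 members passed, with 0% of all genes, and 2 (MMP11 and MMP24, 5.88%) had an unadjusted p under 0.05 against 21.6% of genes. Without overlap, 2 were higher (ADAMTSL5 and VCAN) against 31% of genes and 18 were lower (52.9%) against 31%. In high imatinib 0 of 34 passed, with 0% of genes, and 3 (AGRN, MMP24 and TIMP1, 8.82%) had an unadjusted p under 0.05 against 15.2%. Without overlap, 5 were higher (ADAMTSL3, ADAMTSL4, ADAMTSL5, AGRN and TIMP1; 14.7% against 24.3%) and 14 were lower (41.2% against 25.9%). In nilotinib 0 of 34 passed, with 0.443% of genes, and 7 (AGRN, COL26A1, MMP8, MMP11, MMP21, MMP24 and MMP27; 20.6%) had an unadjusted p under 0.05 against 31.9%. Without overlap, 4 were higher (ADAMTSL4, ADAMTSL5, AGRN and TIMP1; 11.8% against 32.7%) and 19 were lower (55.9% against 34.7%). With the technical axis taken out, the members without overlap were 2 higher and 15 lower in low imatinib (25.4% and 25% of genes), 6 higher and 10 lower in high imatinib (19.2% and 20.3%), and 7 higher and 11 lower in nilotinib (21.8% and 26.1%). No MMP was among the members that were higher without overlap in any of the 3 as deposited, while with the axis taken out MMP28 was in high imatinib and MMP21 and MMP25 were in nilotinib.

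In low imatinib the lowest differences were those of HSPG2 (-0.51 ± 0.39, adjusted p = 0.462) and MMP24 (-0.48 ± 0.15, adjusted p = 0.142). In high imatinib AGRN was at 0.69 ± 0.21 (adjusted p = 0.228) and MMP15 at -0.58 ± 0.27 (adjusted p = 0.365). MMP13, a collagenase, was at -0.44 ± 0.23 there (adjusted p = 0.405). In nilotinib ADAMTSL4 was at 0.91 ± 0.40 (adjusted p = 0.167), AGRN at 0.52 ± 0.21 (adjusted p = 0.151) and MMP8 at -0.44 ± 0.12 (adjusted p = 0.0776). MMP24 came nearest to passing in nilotinib, at -0.65 ± 0.15 (adjusted p = 0.0637). The median over members was -0.19 in low imatinib, -0.10 in high imatinib and -0.21 in nilotinib, and that over all genes was -0.03, -0.02 and -0.03.

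Between resistances no member passed. High against low imatinib gave 0 of 34 (0% of genes) and 2 at an unadjusted p under 0.05, MMP19 and TIMP1 (5.88% against 4.85% of genes). Nilotinib against low imatinib gave 0 of 34 (0% of genes) and 1, TIMP1 (2.94% against 6.91%). Nilotinib against high imatinib gave 0 of 34 (0% of genes) and 1, TIMP4 (2.94% against 6.34%). VCAN was 2.28-fold lower in nilotinib than in low imatinib, with both nilotinib lines below both low-imatinib lines (-1.19, 95% interval -3.58 to 1.20, adjusted p = 0.819). TIMP3 was at 0.42 ± 0.21 in high against low imatinib and at 0.37 ± 0.21 in nilotinib against low imatinib, without overlap in either. On its dimmer feature the sets overlapped in both comparisons. That feature read 4.84 and 5.00 in low imatinib, 5.30 and 4.95 in high imatinib, and 5.02 and 4.90 in nilotinib. TIMP2 and MMP19 were at -0.35 ± 0.18 and -0.60 ± 0.26 in nilotinib against high imatinib (adjusted p = 0.744 for both).

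Within a resistance the 2 lines differed for several members, judged against the spread of technical arrays only. In low imatinib line 2 was higher than line 1 for 4 of 34 members (ADAMTSL4, ADAMTSL5, MMP15 and TIMP1; 11.8% against 8.77% of genes) and lower for 3 (AGRN, HSPG2 and VCAN; 8.82% against 9.96%). In high imatinib it was higher for 8 (ADAMTSL2, MMP1, MMP15, MMP17, MMP25, TIMP2, TIMP4 and VCAN; 23.5% against 19.8%) and lower for 4 (HSPG2, MMP19, TIMP1 and TIMP3; 11.8% against 13.2%). In nilotinib it was higher for 5 (ADAMTSL1, ADAMTSL4, HSPG2, MMP13 and TIMP1; 14.7% against 11.5%) and lower for 4 (ADAMTSL5, AGRN, MMP15 and VCAN; 11.8% against 16.1%). Naive K exceeded naive S for 2 members (ADAMTSL2 and MMP16; 5.88% against 5.9%) and was lower for none of 34 (6.46% of genes). ADAMTSL2, which binds fibrillin and latent TGF-beta binding proteins, read 6.69 in naive S and 7.02 in naive K (0.33 ± 0.11, adjusted p = 0.0384), and MMP16 read 5.35 and 5.79 (0.44 ± 0.13, adjusted p = 0.0240). When each array was left out in turn, 0 to 3 members passed between the naive sets. The share of all genes in those fits is not given, so this range is not read as a trait of the members.

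Outside VCAN, HSPG2, TIMP1, TIMP4 and MMP19, the widest line difference was that of ADAMTSL4. MMP15 differed between the lines of every resistance: line 2 minus line 1 was 0.54 ± 0.12 in low imatinib (adjusted p = 0.00102), 0.64 ± 0.12 in high imatinib (adjusted p = 4.36e-05) and -0.39 ± 0.12 in nilotinib (adjusted p = 0.0110). Line numbers do not pair lines across resistances, so these signs are not compared. ADAMTSL5 was at 0.63 ± 0.12 in low imatinib (adjusted p = 1.74e-04) and at -0.42 ± 0.12 in nilotinib (adjusted p = 0.00720). The root mean square difference between lines was 0.785 for members and 0.534 for all genes in high imatinib, 0.326 and 0.312 in low imatinib, 0.282 and 0.477 in nilotinib, and 0.183 and 0.257 between the naive sets. A root mean square gives large differences the most weight, and VCAN alone was at 3.71 in high imatinib. The value without VCAN was not computed. The median difference there was 0.08 for members and 0.04 for all genes.

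**Figure D4:**
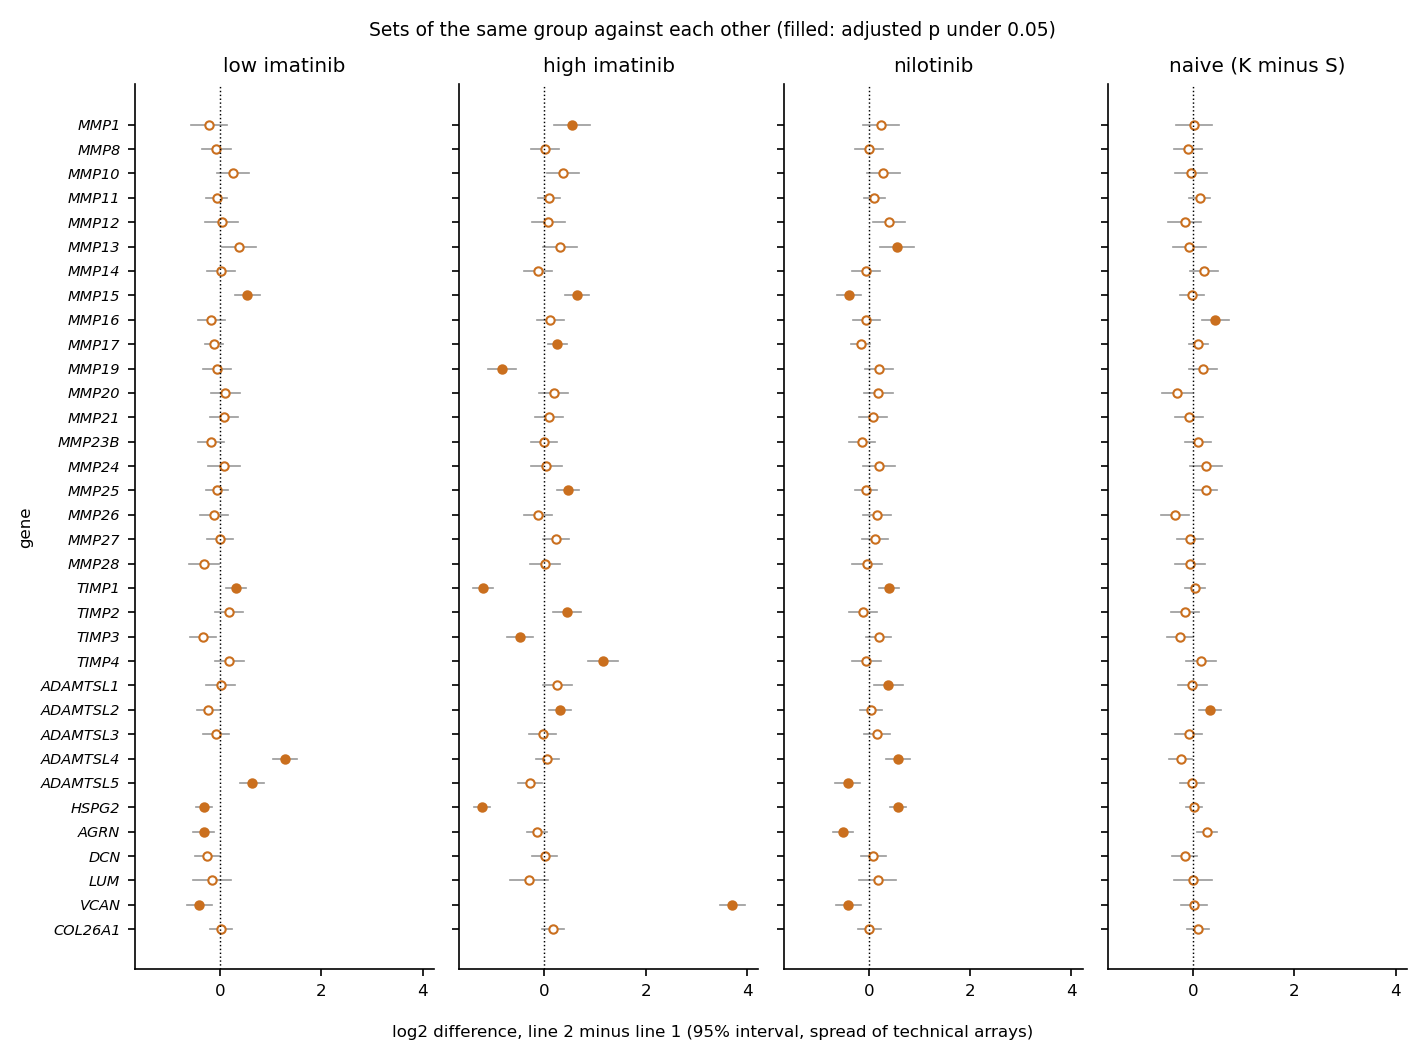
Line 2 minus line 1 for each member within each resistance, and naive K minus naive S, in log2 units, with those that passed limma's test at an adjusted p under 0.05 marked. VCAN at 3.71 in high imatinib is the farthest point, and HSPG2 and TIMP1 lie at -1.23 and -1.22 there.

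Some members lie side by side in the genome. The genes MMP20, MMP27, MMP8, MMP10, MMP1, MMP12 and MMP13 lie in this order on chromosome 11 from 102576832 to 102955732 (GRCh38.p14). They include collagenases, a stromelysin and an elastase. Each is the direct neighbour of the next, except that MMP1 and MMP12 are not direct neighbours. All 7 lay in the dimmest 40% of genes. The mean over the 7 was 5.15 and 5.05 in naive sets S and K, 4.87 and 4.94 in low imatinib, 4.69 and 4.94 in high imatinib, and 4.67 and 4.93 in nilotinib. Every line was below both naive sets, by less than 0.5 units. MMP1 in high-imatinib line 1 was the lowest of that gene's sets, at 4.23 ± 0.09 against 4.81 ± 0.34 in naive K. LUM and DCN are neighbours on chromosome 12 and were both dim: LUM read 4.36 to 4.77 and DCN 4.15 to 4.43 over the 8 sets.

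The 6 nearest measured genes, taken equally from both sides, were set beside the members with the largest line values. This comparison was chosen after those values were seen. In high-imatinib line 2 VCAN was 3.57 above naive cells, while its 6 neighbours, among them HAPLN1 (0.02), which encodes a link protein that ties versican to hyaluronan, lay between -0.09 and 0.18. TIMP1 in high-imatinib line 1 was at 1.53, with neighbours from -0.29 to 0.85, and SYN1, the synapsin gene in which TIMP1 lies, at 0.00061. TIMP4 in high-imatinib line 2 was at 1.08, with neighbours from -0.25 to 0.72, and SYN2, the synapsin gene in which TIMP4 lies, at -0.25. ADAMTSL4 in low-imatinib line 2 was at 1.23, and its neighbours lay between -0.55 and 0.94 with a median of 0.56.

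Genes that work with the members were taken from 5 lists: collagen processing (16 of 26 measured), matrix receptors (10 of 21), regulators of proteases (8 of 15), other basement membrane and matrix proteins (25 of 26) and growth factors that act on matrix (13 of 20). Over all lines against naive, 2 of these 72 genes (2.78%, against 3.72% of all genes) were higher past the threshold and none was lower, and 16 (22.2%, against 29.8%) had an unadjusted p under 0.05. Both were in the growth factor list. LTBP1, which binds latent TGF-beta to the matrix, read 6.97 in both naive sets, 10.31 and 9.96 in low imatinib, 8.29 and 9.79 in high imatinib, and 7.60 and 8.83 in nilotinib (2.17 ± 0.44, adjusted p = 0.0484). PDGFA, a growth factor for mesenchymal cells, read 5.95 and 6.02 in naive sets S and K, 6.48 and 6.83 in low imatinib, 7.26 and 7.03 in high imatinib, and 6.17 in both nilotinib lines (0.68 ± 0.13, adjusted p = 0.0457). All 6 lines were above both naive sets for both genes. Each lost the threshold when naive S, naive K, either low-imatinib line or either nilotinib line was left out (adjusted p from 0.0506 to 0.295), and with the technical axis taken out (0.173 for LTBP1 and 0.142 for PDGFA). LTBP1 also lost it after quantile normalization (0.0623) and both with every array feature (0.0726 and 0.0701). In each of the other 6 comparisons of groups 0 of 72 passed with limma, and 4 to 17 (5.56% to 23.6%) had an unadjusted p under 0.05, where the share over all genes was 4.85% to 31.9%.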

How the data were processed

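Whole-transcript GeneChip arrays of K-562 RNA (100 ng each) were analysed as deposited. The authors' values are log2 intensities per feature, with the base inferred from the range of 1.24 to 14.2. Transcriptome Analysis Console 4.0 was used, per the submitters' processing notes; its normalization settings were not given in the sources used here. Of 53617 features, 16098 carried 1 gene symbol, all matched by gene identifier to RefSeq (GRCh38.p14). The feature with the highest mean stood for a gene (14884 genes, 779 with several features). The 4 arrays of a set gave 1 mean, and the 8 set means were fitted with limma 3.58.1 (R 4.3.3), which leaves 4 residual degrees of freedom, for 7 comparisons of groups. Sets within a group were compared on 32 arrays with 24 residual degrees of freedom, which measures technical spread only. P-values were adjusted over all genes (Benjamini-Hochberg, threshold 0.05, two-sided), and ± after a difference is limma's standard error. The fit was tested on simulated data. Named members were, by absolute difference, the 8 largest without overlap against naive cells and the 3 largest in each other comparison, plus the 10 brightest and the 10 with the widest range. Members and lists were chosen with earlier results of these data known. Alternatives were quantile normalization, the main technical axis taken out, a filter on dim genes, every array feature, the mean over features, only the groups compared, the set as a random block, the line number as a block, and each set or array left out. The number of lines, 2 per resistance, limits the precision of the group comparisons, since the arrays of a line are technical repeats.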

Additional observations from a re-analysis of the deposited data

Results flagged for a closer look

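A line far from the other 5 resistant lines marked 3 of the 34 members, by a gap to the nearest line that made up most of the range over the 6 lines. The nominal rate of this rule is about 1 in 20 genes, or 1.7 of 34 members. The share of all genes that it marks was not counted, so 3 members are not read as an excess. MMP19 stood at 6.99 in high-imatinib line 1, with the next line at 6.15 (gap over range 0.719). TIMP4 stood at 6.89 in high-imatinib line 2, with the next line at 5.81 (0.705). MMP24 stood at 7.15 in nilotinib line 1, with the next line at 7.35 (0.650), a gap within the SD of its arrays.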

How the results depend on the processing

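Of the counts of members that passed, 137 alternatives stayed within 1.5 times the reported count, 17 were higher and 5 lower. For the 41 named differences, 578 values under the alternatives kept their direction and side of the threshold, 24 newly passed and 1 reversed, COL26A1 over all lines with the technical axis taken out (0.013). Among all 34 members, 10 changed sign over all lines under that setting and 8 under quantile normalization. Quantile normalization gave 1 member over all lines (MMP24) and 4 between the naive sets, and taking out the technical axis also gave 4 between the naive sets. The share of all genes under these settings is not given here. Without that share, these counts cannot tell a shift over the whole array from a shift in the members. Fitting only the groups compared gave 1 of 34 in low imatinib (VCAN, 1.13, adjusted p = 0.00734), where 13.4% of all genes passed. With the set as a random block, 6 of 34 passed over all lines (24.6% of all genes), 0 in low imatinib (18%), 5 in high imatinib (11.3%), 6 in nilotinib (24.8%), 1 in high against low imatinib (2.77%), 1 in nilotinib against low imatinib (3.7%) and 2 in nilotinib against high imatinib (1.35%). Leaving out a set leaves its group with 1 set, so counts of members that passed are not given for it. Leaving out each array, chosen after seeing the data, gave 0 to 3 between the naive sets, also without a share of all genes. With the line number as a replicate block over the 6 resistant lines, 0 members passed in each of the 3 comparisons between resistances, as without it. The differences of line 2 from line 1 correlated across genes at 0.139, 0.188 and -0.201 between pairs of resistances, so the numbers were not taken to pair the lines. Signal near the lower end of the array limits what can be read of the 20 dim members.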
